A study of Mus musculus with 4 samples.

Results

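The receptors described here decide whether a lymphocyte stays in a tissue or leaves it. They comprise 9 genes chosen by name: the CXC chemokine receptors Cxcr3, Cxcr4, Cxcr5 and Cxcr6, the sphingosine-1-phosphate (S1P) receptors S1pr1 and S1pr4, the oxysterol receptor Gpr183, the selectin ligand Selplg and the retention antigen Cd69. All 9 were found among the 38697 genes of the authors' deposited table, and 8 of them among the 19193 genes that carry an adjusted p there. RNA was measured in sorted lung ILC2s (group 2 innate lymphoid cells), which live in tissue and secrete IL-5 and IL-13. The mice were C57BL/6 and were treated with bleomycin, which injures the lung and leads to fibrosis. The 2 WT samples were of genotype R5/+ and the 2 KO samples of genotype R5/+Nrp1f/f, so both groups carry 1 copy of R5, a reporter at the Il5 locus that also encodes Cre recombinase. Deletion of the floxed Nrp1 gene, which encodes the semaphorin and VEGF receptor neuropilin-1, is thus limited to cells that have switched Il5 on. Each sample was a pool of 3 to 4 mice, whose age is not given in the sources used here.

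Chemokine receptors, S1P receptors and Gpr183 are G protein coupled receptors that steer cells along gradients of their ligands. S1P is abundant in blood and lymph and scarce within tissue, so a lymphocyte with S1PR1 on its surface is drawn out of the tissue. CD69 binds S1PR1 and takes it off the surface, which holds the cell in place, and CXCR6 and CXCR4 hold cells near sources of CXCL16 and CXCL12.

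The deposited values compare the genotypes: baseMean, which averages a gene's normalized counts over all libraries, and a log2 fold change, its standard error (SE) and p-values. The table's name puts WT before KO without stating the numerator, so its sign was turned, and a positive value below is one that is higher in KO. If the numerator is the other genotype, every direction below turns. Nrp1 stood in the authors' deposited table at -1.18 ± 0.21 (SE) at a baseMean of 3771 (adjusted p = 1.27e-04), which does not go against this reading. Values per library could not be assigned to samples, so levels by genotype are given as means derived from baseMean and the fold change, and the spread between pools enters only through the SE. The authors' deposited table holds all 12 ILC2 markers, with baseMean from 187 for Il13 to 41644 for Rora.

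None of the 8 receptors with an adjusted p passed the authors' two-sided test, while the authors' deposited table calls 0.552% of all genes tested when the adjusted p has to be under 0.05. By direction, 0.453% of all genes tested were called higher and 0.099% lower. Of the 8, 4 had a positive and 4 a negative log2 value, with a median of 0.04 against 0.08 over all genes tested. At an unadjusted p under 0.05, 2 receptors were lower in KO, Cxcr6 and Selplg, and 0 higher, where 3.95% of all genes tested were lower, 9.62% higher and 13.6% either. Abundant genes as a whole lay below 0: the 2480 genes whose baseMean was 1000 or more had a median log2 of -0.25, and 21.6% of them were lower at an unadjusted p under 0.05. Scarce genes lay above 0: the 8324 genes tested whose baseMean was under 50 had a median of 1.41, and 85.2% of them were positive. Between these levels, the 8389 genes tested with a baseMean of 50 to 1000 had a median of -0.11, and 36.9% of them were positive. Counts of positive and negative values in the lists below are to be read against these shares. In bulk RNA, fewer cells expressing a receptor and less of its RNA per cell cannot be told apart.

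Levels of the 9 genes spanned a range from near the detection limit to among the most abundant transcripts of the cells. Counted per kb of exon, which allows genes to be compared, Cxcr6 came first at 16340 normalized counts per kb, rank 22 among the 15376 protein-coding genes tested. Cd69 followed at 4168 per kb (rank 132), Selplg at 2106 (rank 266) and Gpr183 at 1429 (rank 389). These 4 were thus among the more highly expressed genes of the cells. Cxcr4 stood at 584 per kb, S1pr1 at 277 and S1pr4 at 219, and the last 2 had ranks of 1996 and 2452. Cxcr5 and Cxcr3 were near the floor, at 2.36 and 1.66 normalized counts per kb. The retention genes Cxcr6 and Cd69 were thus the most abundant of the 9 per length. Whether neighbours in this order differ beyond their spread over samples was not tested, as no level per library was used.

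**Figure D1:**
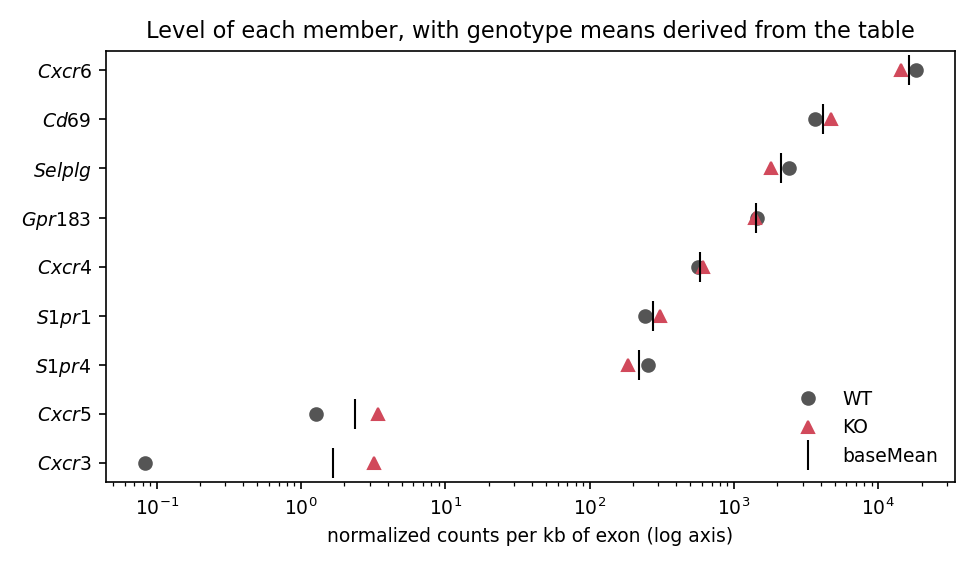
Level of each receptor gene in normalized counts per kb of exon (log axis): the bar is the mean over all libraries, the circle the WT mean and the triangle the KO mean, both derived from baseMean and the fold change. Cxcr6 is highest at 16340 per kb and Cxcr3 lowest at 1.66, and the genotype means lie close together for every gene but the lowest 2, whose derived means rest on few counts.

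Several of these genes share their locus with another gene, which bears on how reads are assigned, because neither library kit is described as marking strand. Cxcr6 (chromosome 9, 123806475 to 123811760, plus strand, mm10) lies wholly inside Fyco1 on the opposite strand, and Gpr183 (chromosome 14, 121952551 to 121965195, minus strand) wholly inside Ubac2 on the opposite strand. In both cases 0 exonic bases are shared, so spliced reads of the host gene do not fall on the receptor's exons. Per kb of exon, Ubac2 stood at 342 normalized counts against 1429 for Gpr183, and Fyco1 lower than Ubac2 against 16340 for Cxcr6. Cxcr5 (chromosome 9, 44511787 to 44561877, minus strand) shares 110 exonic bases, or 3.30% of its exonic length, with Bcl9l on the other strand. Bcl9l stood at 26.1 normalized counts per kb against 2.36 for Cxcr5, so part of the few Cxcr5 counts cannot be told apart from those of Bcl9l.

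The 250 bases before the RefSeq start of both nested genes (GRCm38.p6) are shown, 5′ to 3′ on the receptor's strand, because they are the promoters that lie inside an intron of a neighbour. They hold 0 exonic bases of the host gene. The Cxcr6 stretch is chr9:123806227-123806476 (plus strand) and the Gpr183 stretch chr14:121965194-121965443 (minus strand), and capitals mark a match to the RUNX core TGTGGT or its reverse complement.
Cxcr6: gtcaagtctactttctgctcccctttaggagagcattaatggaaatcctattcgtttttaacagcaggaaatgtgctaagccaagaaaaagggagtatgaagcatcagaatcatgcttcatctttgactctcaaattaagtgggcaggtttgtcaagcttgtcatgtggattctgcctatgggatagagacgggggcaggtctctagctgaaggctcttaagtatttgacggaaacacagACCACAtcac
Gpr183: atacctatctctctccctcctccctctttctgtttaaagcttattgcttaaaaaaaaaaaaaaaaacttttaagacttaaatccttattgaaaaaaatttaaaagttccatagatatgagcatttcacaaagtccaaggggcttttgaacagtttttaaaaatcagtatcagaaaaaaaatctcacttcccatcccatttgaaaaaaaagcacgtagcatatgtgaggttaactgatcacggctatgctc

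Both stretches are poor in G and C, at 43.6% for Cxcr6 and 32.0% for Gpr183, against a median of 52.4% over the 32851 promoters of the same length in that table. Of the 9 receptors, 5 have an entry there: Cxcr3, Cxcr4, Cxcr6, S1pr4 and Gpr183. Searched on both strands, the RUNX core TGTGGT was found in the stretches of Cxcr3 and Cxcr6 and in 14.0% of all promoters. The KLF box CACCC was found in those of Cxcr4 and S1pr4 and in 52.0% of all promoters. TATAAA was found for Cxcr4 and in 12.4% of all, where the match was present on both strands and overlapped itself. For GATA factors the motif AGATAA was found in 0 of the 5 and in 9.99% of all promoters. For AP-1 the motif TGACTCA was found in 0 of the 5 and in 4.46% of all promoters. A match is a run of letters and not a measured site.

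Among the CXC receptors, the most abundant was Cxcr6, the receptor for the membrane-bound chemokine CXCL16 and a marker of tissue-resident lymphocytes. Its derived mean was 35402 normalized counts in WT and 27702 in KO. The fold change in the authors' deposited table was -0.35 ± 0.16 with a 95% interval of -0.67 to -0.04 (unadjusted p = 0.0270, adjusted p = 0.282). The interval thus lies below 0, but the gene did not pass over all genes, and the 237 genes nearest to it in baseMean rank had a median of -0.25, which its interval includes. For most receptors these are the 200 genes tested on each side, but few genes lie above Cxcr6. Of those neighbours, 22.8% had a lower value than Cxcr6.

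Cxcr4, the receptor for CXCL12 that holds cells in bone marrow and in inflamed tissue, had derived means of 1012 normalized counts in WT and 1098 in KO. It stood in the authors' deposited table at 0.12 ± 0.22 with an interval of -0.32 to 0.55 (adjusted p = 0.863). Genes of like baseMean had a median of -0.24, so Cxcr4 lay above 97.0% of them while its interval included their median. The gene lies on chromosome 1 (128588199 to 128592293, minus strand).

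Cxcr5, which guides cells into B cell follicles, and Cxcr3, the receptor for the interferon-induced chemokines CXCL9, CXCL10 and CXCL11, were scarcely detected. Their baseMean was 7.86 and 2.87, and Cxcr3 has no adjusted p in the authors' deposited table. Cxcr5 stood in the authors' deposited table at 1.44 ± 1.89 (adjusted p = 0.790) and Cxcr3 at 5.28 ± 3.38 (unadjusted p = 0.118). These are fitted quantities: the derived WT mean of Cxcr3 was 0.143 normalized counts, under a single read, so no fold is given. Cxcr3 lies on the X chromosome (101731535 to 101734269, minus strand). Beside the Cxcr5 value, 9 of 10 B and plasma cell markers were positive, with a summed derived mean of 720 normalized counts in WT and 1108 in KO and 0 markers with a baseMean under 1. Jchain alone held 552 of these counts in WT and 716 in KO, at 0.38 ± 0.81 and an SE 3.24 times that of genes of like baseMean. Of the 10, 7 had a baseMean under 50, where 85.2% of all genes tested were positive, and genes of like baseMean to Cxcr5 had a median of 1.94, above its own value. The markers' part in the Cxcr5 value was not tested.

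The S1P receptors differed in precision at like levels of 277 and 219 normalized counts per kb. S1pr1, the egress receptor, had derived means of 744 normalized counts in WT and 945 in KO (chromosome 3, 115710433 to 115715072, minus strand). Its fold change in the authors' deposited table was 0.35 ± 0.69 with an interval of -1.0 to 1.69 (adjusted p = 0.872). This SE is 3.02 times the median of 0.23 for genes of like baseMean, so a KO level between 0.499 and 3.23 times WT lies within the interval. S1pr4, an S1P receptor of haematopoietic cells, had derived means of 603 in WT and 440 in KO (chromosome 10, 81497747 to 81500132, minus strand). It stood in the authors' deposited table at -0.45 ± 0.28 with an interval of -1.01 to 0.10 (adjusted p = 0.494), and its SE was 1.07 times that of genes of like baseMean. The S1P receptors thus had values of opposite sign, and whether they differ from each other was not tested, since both rest on the same libraries.

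S1pr1 is also a gene of blood vessel walls. Of 10 endothelial markers 9 were positive, with a summed derived mean of 3356 normalized counts in WT and 4358 in KO. Their values ran from -0.07 for Vwf to 1.15 for Emcn, and none had a baseMean under 1 or passed the test in the authors' deposited table. One of the 10, the VEGF receptor gene Kdr, had an SE 3.01 times that of genes of like baseMean, close to the ratio for S1pr1, and the other 9 had ratios from 0.982 to 1.40. The part of endothelial RNA in the S1pr1 value was not tested.

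Cd69, an early activation antigen that opposes S1PR1, was the other receptor of wide error. Its derived mean was 23598 normalized counts in WT and 30663 in KO (chromosome 6, 129267325 to 129275436, minus strand). It stood in the authors' deposited table at 0.38 ± 0.44 with an interval of -0.48 to 1.24 (adjusted p = 0.757). Genes of like baseMean had a median SE of 0.15, so the SE of Cd69 was 2.86 times theirs. Among the 178 genes whose baseMean was 10000 or more, 4 had an SE over 2 times that of their neighbours, Cd69 included. The high level of Cd69 therefore did not bring the precision it gave other abundant genes.

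Of the 4492 genes whose baseMean was 500 or more, 68 (1.51%) had such a wide SE, and S1pr1 and Cd69 were 2 of them. The measure was chosen after the values were seen. The other 5 receptors at this level had ratios between 1.02 and 1.13. Of the marker genes at this level, 6 of 6 for fibroblasts and stroma, 3 of 3 for epithelial cells and 1 of 1 for B and plasma cells had a wide SE, against 0 of 11 for ILC2s, 0 of 5 for T cells, 0 of 2 for macrophages, monocytes and dendritic cells and 0 of 2 for endothelial cells. Whether RNA of other cells enters the spread of S1pr1 or Cd69 was not tested.

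**Figure D2:**
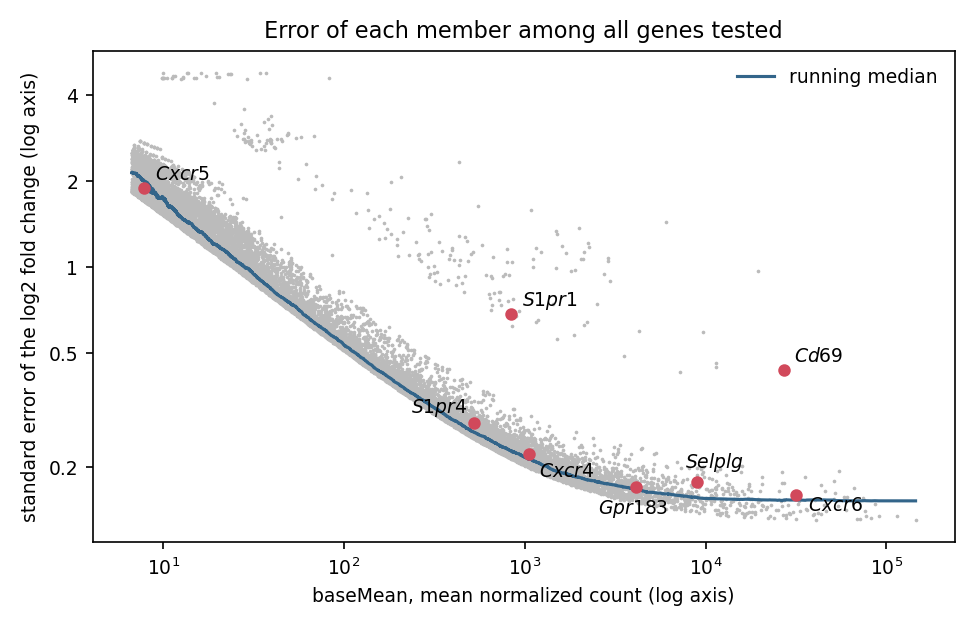
Standard error of the log2 fold change (log axis) against baseMean (log axis) for the 19193 genes tested in grey, with their running median as a line and the 8 receptors with an adjusted p in red. S1pr1 and Cd69 stand at 3.02 and 2.86 times the SE of genes of like baseMean, and the other 6 lie on the main band.

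Gpr183, also called EBI2, draws cells towards oxysterols made by stromal cells and positions innate lymphoid cells in tissue. Derived means were 4183 normalized counts in WT and 4067 in KO. The fold change in the authors' deposited table was -0.04 ± 0.17 with an interval of -0.37 to 0.29 (adjusted p = 0.949). On a linear scale the interval spans a KO level of 0.771 to 1.23 times WT, the narrowest of the 9 receptors on the log2 scale after that of Cxcr6. With centring on abundant genes, Gpr183 turned to 0.21 (adjusted p = 0.708).

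Selplg encodes PSGL-1, the mucin-like ligand with which leukocytes roll on P-selectin and other selectins (chromosome 5, 113818536 to 113832644, minus strand). Derived means were 10220 normalized counts in WT and 7773 in KO. The fold change in the authors' deposited table was -0.39 ± 0.18 with an interval of -0.74 to -0.05 (unadjusted p = 0.0256, adjusted p = 0.277). As with Cxcr6, the interval lies below 0 but includes the median of genes of like baseMean, here -0.26, and 17.8% of those genes had a lower value. Centred on abundant genes, Selplg stood at -0.14 (adjusted p = 0.869) and Cxcr6 at -0.10 (adjusted p = 0.912).

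T cells express Cxcr6 and Selplg as well. Beside their values, 9 of 11 T cell markers with an adjusted p were negative, with a summed derived mean of 9790 normalized counts in WT and 7133 in KO over the 12 listed. The largest parts of that sum were Trbc1 and Trbc2, at 3401 and 2820 in WT and 2475 and 2230 in KO. Of the 11, the 2 positive were Cd4 and Cd8b1, at baseMean values of 13.8 and 17.7. Cd3g, part of the T cell receptor complex, passed the test in the authors' deposited table at -0.96 ± 0.24 (adjusted p = 0.0292). Its baseMean was 963, while Cd247, Trac, Cd3e and Cd3d, of the same complex, stood at 170, 114, 51.8 and 18.1. Which cells the Cd3g, Trbc1 and Trbc2 RNA came from was not tested. None of the 12 had a baseMean under 1. The ILC2 markers stood below 0 as well in 12 of 12 cases, with a median of -0.34. The part of either in the values of Cxcr6 and Selplg was not tested.

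**Figure D3:**
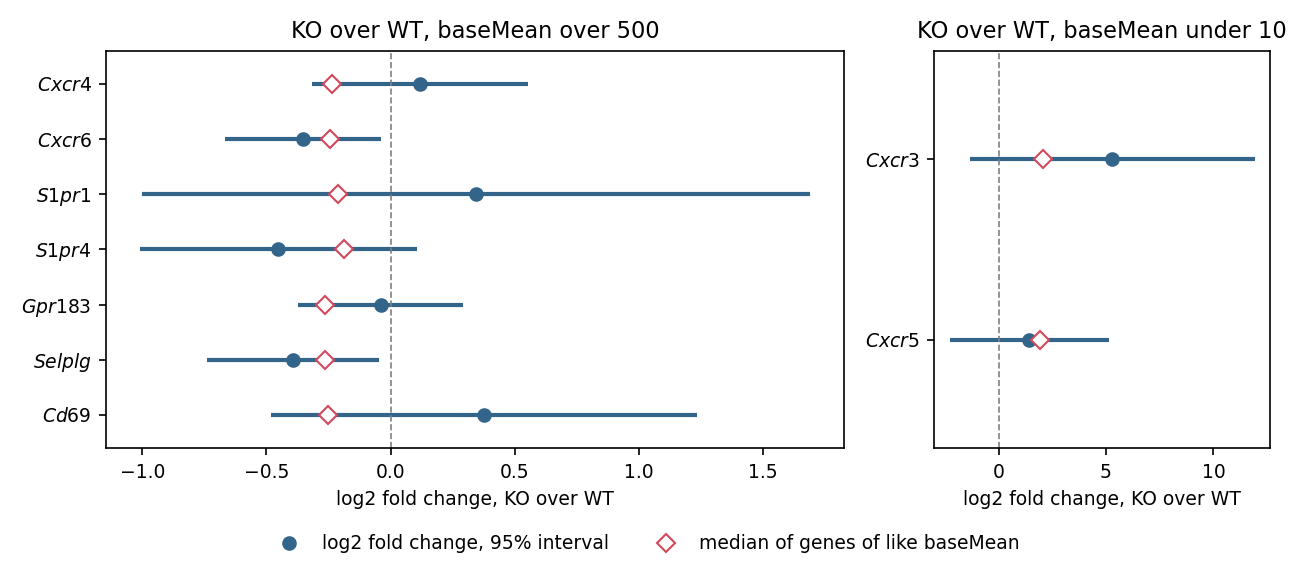
Log2 fold change of KO over WT with its 95% interval for each receptor gene (filled circles and bars), and the median of the genes nearest in baseMean rank (open diamonds; 400 genes, but 237 for Cxcr6, 245 for Cd69 and 201 for Cxcr3, which lie near an end of the ranking). The right panel has its own, wider axis for the 2 genes with a baseMean under 10, and only the intervals of Cxcr6 and Selplg do not reach 0.

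**Figure D4:**
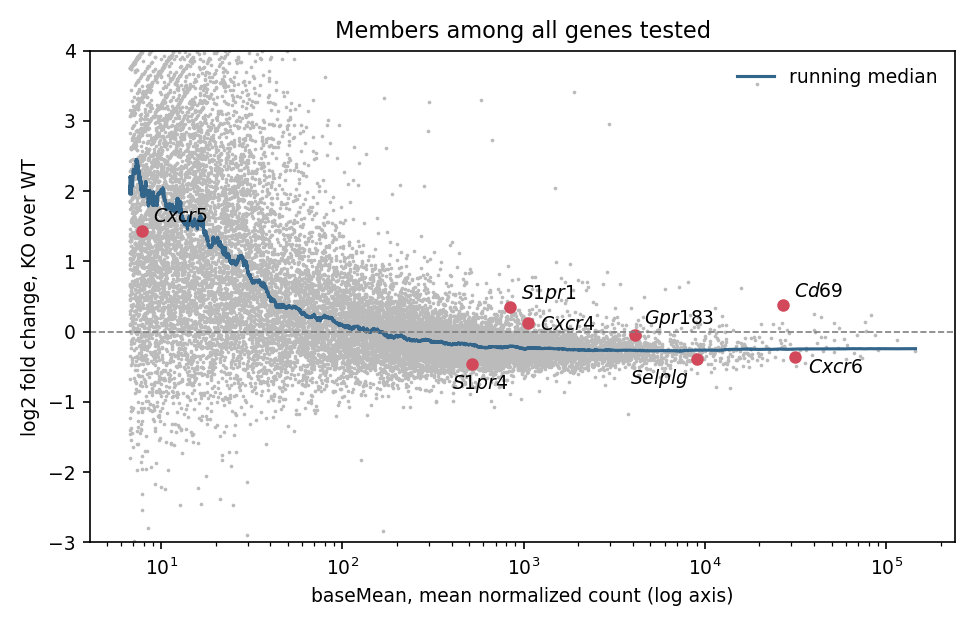
Log2 fold change of KO over WT against baseMean (log axis) for all genes tested in grey, with the running median as a line and the 8 receptors in red; 946 genes lie outside the plotted range of -3 to 4. The line sits below 0 for abundant genes, S1pr1 and Cd69 lie above it at 0.35 and 0.38, and Selplg and Cxcr6 lie below it at -0.39 and -0.35.

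The size of difference that could have been called sets what these results can show. A gene needed a statistic of at least 3.64 to pass, which for Cxcr6 is a log2 difference of 0.58. The size needed was 0.62 for Gpr183, 0.64 for Selplg, 0.81 for Cxcr4 and 1.04 for S1pr4. For Cd69 it was 1.59, or 3.02-fold, and for S1pr1 2.50, or 5.66-fold. A difference in S1pr1 or Cd69 as large as that of Nrp1 would not have been detectable here, whereas for Cxcr6, Gpr183, Selplg, Cxcr4 and S1pr4 it would have passed at their SE. Neither case shows that a level is equal between the genotypes.

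The genes that act around the receptors were taken from 8 lists of 100 genes in all, of which 99 are in the table and 96 have an adjusted p. Of these 96, 0 were called higher and 0 lower in the authors' deposited table, against 0.552% of all genes tested called either way. At an unadjusted p under 0.05, 2 were higher and 11 lower, where 9.62% of all genes tested were higher and 3.95% lower. Among all genes tested with a baseMean of at least 1000, 0.524% were higher and 21.6% lower at that threshold. All of the 11 but Arrb1 had a baseMean of at least 1000. Of the 38 with a baseMean of at least 1000, 33 had a negative log2 value, while 92.9% of all genes tested at that level did.

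Ligands of the CXC receptors had 5 of 8 positive values and a median of 0.31. Cxcl12, the ligand of CXCR4 made mainly by stromal cells, stood in the authors' deposited table at 1.04 ± 0.42 (unadjusted p = 0.0130, adjusted p = 0.209) at a baseMean of 303. Beside it, 10 of 10 fibroblast and stromal markers were positive, with a summed derived mean of 8442 normalized counts in WT and 14031 in KO and 0 with a baseMean under 1. Of these 10 markers, 0 had an unadjusted p under 0.05, and 7 had an SE over 2 times that of genes of like baseMean. The markers' part in the Cxcl12 value was not tested. Mif stood in the authors' deposited table at -0.42 ± 0.21 (adjusted p = 0.343) and Cxcl10, a ligand of CXCR3, at 0.25 ± 0.22 (adjusted p = 0.658). Per kb of exon, Cxcl10 stood at 475 normalized counts in libraries in which its receptor gene stood at 1.66.

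Other receptors of the chemokine family had 4 of 6 positive values. The scavenging receptor Ackr3, which binds CXCL12, stood in the authors' deposited table at 0.95 ± 0.55 (adjusted p = 0.443). The chemerin-binding receptor Ccrl2 was the most abundant at a baseMean of 3445 and stood in the authors' deposited table at -0.30 ± 0.18 (adjusted p = 0.457), and Xcr1 at -0.12 ± 0.26 (adjusted p = 0.881). Cxcr1 and Cxcr2, receptors of neutrophils, have no adjusted p.

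In S1P supply and the other S1P receptors, 9 of 14 values were positive, with a median of 0.45 at a median baseMean of 130. Sgpl1, the lyase that degrades S1P within tissue, was the most abundant and stood in the authors' deposited table at -0.28 ± 0.20 (adjusted p = 0.578). The ceramidase Asah1 stood in the authors' deposited table at -0.24 ± 0.21 (adjusted p = 0.668), the kinase Sphk2 at -0.48 ± 0.33 (adjusted p = 0.549) and the lipid phosphatase Plpp1 at 0.91 ± 0.52 (adjusted p = 0.433). Of the S1P receptor genes, S1pr1 was the most abundant per kb, with S1pr4 next, then S1pr3 at 33.6, S1pr2 at 13.6 and S1pr5 at 2.87 normalized counts per kb. The measured enzymes of oxysterol ligand supply for GPR183 were low: Ch25h, Cyp27a1 and Cyp7b1 had baseMean values of 44.4, 19.3 and 17.4. They stood in the authors' deposited table at -0.13 ± 0.79, 0.14 ± 1.16 and 0.97 ± 1.18, with adjusted p from 0.769 to 0.975.

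Selectins and the enzymes that build selectin-binding sugars on PSGL-1 had 9 of 13 negative values and a median of -0.17. Gcnt1, which starts the core branch of these sugars, stood in the authors' deposited table at -0.38 ± 0.17 (unadjusted p = 0.0232, adjusted p = 0.266) and the galactosyltransferase B4galt1 at -0.34 ± 0.16 (adjusted p = 0.315). The interval of each includes the median of -0.27 for genes of like baseMean.

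Among transcription factors of egress and residency, 9 of 11 values were negative, with a median of -0.27. Klf2, an activator of S1pr1 in T cells, had derived means of 231 normalized counts in WT and 354 in KO and stood in the authors' deposited table at 0.61 ± 0.35 (adjusted p = 0.443). Nr4a1 and Bhlhe40 had the highest baseMean values, 90694 and 60464, and stood in the authors' deposited table at -0.26 ± 0.13 (adjusted p = 0.380) and -0.19 ± 0.16 (adjusted p = 0.636). Klf2 and S1pr1 thus had positive values with intervals that include 0.

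Downstream of the receptors, 16 of 22 genes of G protein, arrestin and Rgs signalling were negative, with a median of -0.22. Rgs1 and Rgs2 are high in tissue-resident lymphocytes, and RGS1 shortens chemokine receptor signals. The 2 genes stood in the authors' deposited table at 0.13 ± 0.19 (adjusted p = 0.823) and 0.13 ± 0.18 (adjusted p = 0.809) at baseMean values of 26634 and 51688. The arrestin gene Arrb1 stood in the authors' deposited table at -0.53 ± 0.21 (adjusted p = 0.212) and Adrbk2, a receptor kinase gene now named Grk3, at 1.52 ± 0.64 (adjusted p = 0.237). Of 19 genes of the migration motor 17 were negative, with a median of -0.27. Talin-1 (Tln1), which activates integrins, stood in the authors' deposited table at -0.53 ± 0.16 (adjusted p = 0.0859) and coronin-1A (Coro1a) at -0.45 ± 0.17 (adjusted p = 0.162). The small GTPase gene Rac2 stood in the authors' deposited table at -0.37 ± 0.17 (adjusted p = 0.292) and moesin (Msn) at -0.37 ± 0.15 (adjusted p = 0.206). The list medians lay near the -0.25 of all genes with a baseMean of at least 1000.

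**Figure D5:**
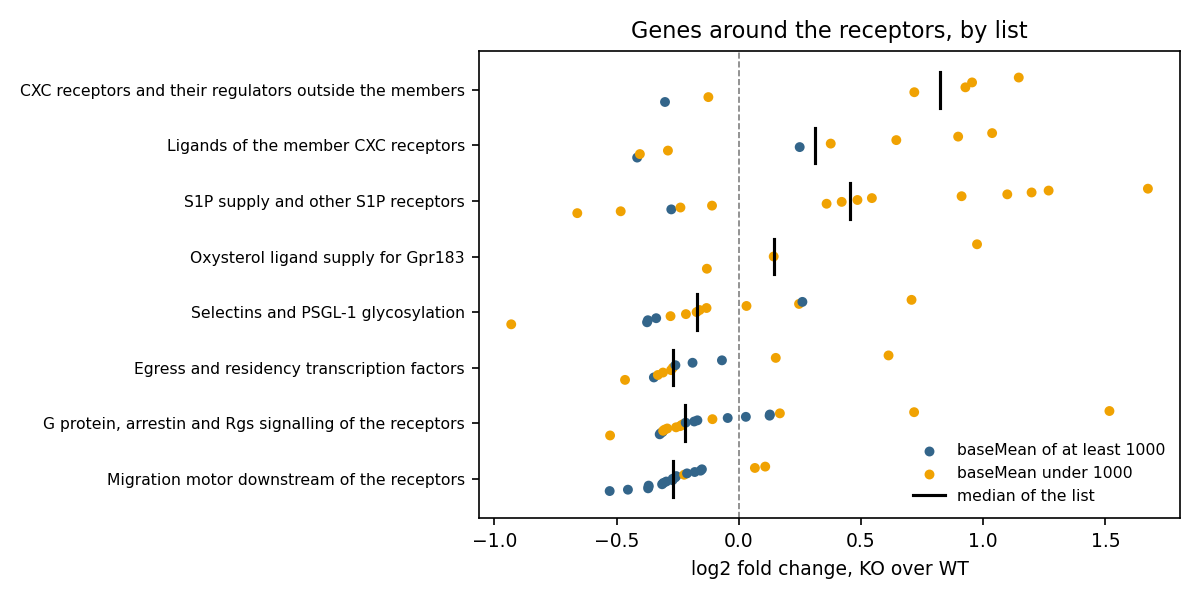
Log2 fold change of KO over WT for each tested gene of the 8 lists around the receptors, blue for a baseMean of at least 1000 and yellow below it, with the list's median as a black line. The upper 4 lists have medians from 0.14 to 0.82 and the lower 4 from -0.27 to -0.17, and 0 of the 96 genes passed the test. The lists also differ in abundance, with a median baseMean from 19.3 to 130 in the upper 4 and from 153 to 3166 in the lower 4.

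The remaining markers of other cells were measured alongside. Of 9 epithelial markers with an adjusted p 8 were positive, and the authors' deposited table lists Sftpc with the highest baseMean, 6032. Of 11 macrophage, monocyte and dendritic cell markers 9 were positive. The most abundant of them, Ccr2 at a baseMean of 12973, was negative at -0.44 ± 0.19, and ILC2s also express this receptor. Of 5 neutrophil markers 2 were positive, and the most abundant, S100a9 at a baseMean of 34.4, was negative at -0.68 ± 0.89. Of 3 NK cell and ILC1 markers 3 were positive, and the most abundant was Gzma at a baseMean of 14.6. No gene of these 4 lists passed the test.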

How the data were processed

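RNA of 4 pools of sorted lung ILC2s (2 WT, 2 KO) was prepared with Trizol (7 to 14 ng/ul), amplified with the SMART-Seq HT kit and made into libraries with a TruePrep kit, per the labels' protocols. HISAT2, Cufflinks and mm10 are named without roles in the submitters' processing notes. Which counter and filters were used is not given in the sources used here. The authors deposited 1 table, with a baseMean (a signal, the mean normalized count over libraries), a log2 fold change and its SE (log2), the statistic of their test (a score) and p-values with and without adjustment. Its headings match DESeq2 output, per the file headers. Another 8 columns of values per library carry codes in place of any sample's label and were not used, so depth per library and a refit were not analysed here.

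The authors' two-sided test was the main result. Its statistic equalled fold change over SE within 5.35e-08, and Benjamini-Hochberg adjustment over 19193 genes (baseMean of at least 6.71) came within 3.96e-05 of the deposited values. Errors borrow strength between genes of like abundance in tests of this kind, so a narrow SE is not the spread of that gene alone.

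Computed here with Python 3.11.15, numpy 2.4.6, pandas 2.3.3 and scipy 1.17.1 were 95% intervals from the SE, genotype means that weight the genotypes equally, medians over the 200 tested genes on each side in baseMean rank (fewer for Cxcr6, Cd69 and Cxcr3, near an end of the ranking), and levels per kb of GENCODE M21 exonic length, on the same build (38388 identifiers matched). Adjustment and centring were tested on simulated data with the same shift in every gene. In the measured data the median differs with abundance, so that test does not show how well centring works on them. Promoters came from RefSeq (GRCm38.p6). Of 191 list genes, 190 matched, older symbols included; Hsd3b7 did not.

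The receptors and lists were chosen with earlier results of these data known. Named genes were the 9 receptors, Nrp1, and of each list around them the 2 of smallest p along with the 2 of highest baseMean; of each of 9 marker lists the most abundant; and any gene past the test. Other genes named for a range, for their part in a sum or a complex, for their sign, or because they overlap a receptor, were chosen after their values were seen. A replicate is a pool, so p-values set a fold change against an error between pools, and that error borrows strength between genes of like abundance.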

Additional observations from a re-analysis of the deposited data

How the results depend on the processing

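No paired analysis was possible because no column of values per library could be matched to a sample, so the replicate block, leaving out a pool, edgeR and other size factors were not run. No receptor was called higher or lower in any of the 6 other settings run, but not every receptor entered each of them. Of these settings, Cxcr3 entered only the one without a filter, and Cxcr5 did not enter that with a baseMean of at least 50. Of the receptors with an adjusted p as deposited, only Cxcr5 had a fold of at least 2, so the others could not pass by fold. All genes called higher numbered 87 as deposited, 21 without a filter, 22 with a baseMean of at least 50, 39 with protein-coding genes alone, 266 at an adjusted p under 0.1, 1808 by fold (at least 2) and unadjusted p (under 0.05), and 225 when centred on abundant genes. Those called lower numbered, in the same order, 19, 2, 13, 17, 40, 17 and 2. The filters change how many genes are adjusted for, and centring moves every log2 value up by 0.25. As this shift is taken from abundant genes, it moves the median of genes with a baseMean under 50, at 1.41, further from 0. Beyond this the cause of the changed counts was not tested. Only centring changes a receptor's log2 value, by the same shift for each; under it Gpr183 turned to 0.21, and no other receptor changed sign. Of the genes around the receptors, 1 passed at an adjusted p under 0.1 (Tln1) and 2 by fold and unadjusted p (Cxcl12 and Adrbk2). Precision rests on 2 pools a genotype and is weakest for S1pr1, Cd69, Cxcr5 and Cxcr3. Without length, the order by baseMean is Cxcr6, Cd69, Selplg, Gpr183, Cxcr4, S1pr1, S1pr4, Cxcr5 and Cxcr3, as per kb.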
